A study of Bos taurus with 2 samples.

Results

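CYP11A1, STAR, FDX1, HSD17B12 and PTGS2 are genes of steroid hormone and prostaglandin synthesis. They were chosen by name and make up 5 of the 17846 rows of a single-cell RNA count table of the bovine embryo. The cells came from bovine chimeric embryos flushed at day 25 that had incorporated bovine embryonic stem cells. The embryos were dissociated with papain and DNase I, the cells were sorted by a gate that the labels do not describe, and 3' libraries were made in droplets with the 10x Genomics v3.1 kit. The series has 2 replicates of 1 group, with no untreated or non-chimeric samples, and nothing in the labels says that the replicates came from separate embryos or how many embryos each held. The p-values therefore measure only how far differences between groups of cells varied from 1 of these samples to the other. For most genes this spread was pooled over genes, and it may be technical.

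Steroid synthesis begins when cholesterol reaches the inner mitochondrial membrane, a step that the transfer protein STAR promotes. CYP11A1, the side-chain cleavage enzyme, then turns cholesterol into pregnenolone with electrons that FDXR passes to it through the iron-sulfur protein FDX1. HSD17B12 is a 3-ketoacyl-CoA reductase of fatty acid elongation that can also reduce estrone to estradiol, and PTGS2, an inducible cyclooxygenase, makes the precursor from which all prostaglandins are formed. In ruminants the trophoblast of the elongating conceptus is known to release both prostaglandins and steroids. Ruminant trophoblast is also known for pregnancy-associated glycoproteins (PAG) and prolactin-related proteins (PRP). Which type of trophoblast cell the gated cells below belong to was not tested.

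Levels were read in 3 classes of cells. PAG-high cells carried 10 or more UMIs of PAG2 or of PAG8, PRP-high cells carried 10 or more UMIs of PRP1 or of PRP4, and all remaining cells are called other cells; a UMI is a molecular tag that counts a captured RNA molecule once. Of 4359 kept cells, 12 were PAG-high (5 in replicate 1 and 7 in replicate 2), 12 were PRP-high (8 and 4) and 4335 were other cells (1926 and 2409), and no cell passed both gates. The summed UMIs were 93428 and 101886 in PAG-high cells, 65339 and 24059 in PRP-high cells, and 11004048 and 15276310 in other cells. Levels are given as CPM, the UMIs of a gene scaled to a common total of its class and replicate (counts per 1000000 UMIs), with exact 95% Poisson intervals; intervals and limits cover counting error only.

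Beside the 4 gating genes, the PAG-high cells carried other trophoblast transcripts: 15 of the 20 remaining markers in the table had a UMI, with a summed level of 8777 CPM in replicate 1 and 14654 CPM in replicate 2 against 734 and 762 CPM in other cells. In PRP-high cells 8 of the 20 had a UMI, with 7989 and 8105 CPM. All 20 had a UMI in the far more numerous other cells, so the counts of markers with a UMI do not set the gated cells apart. Of all 15248 genes tested, 6812 had no UMI in PAG-high cells. The match was not complete, since PAG1 had no UMI in either gate and GATA3, which encodes a trophoblast transcription factor, had 353 CPM in PAG-high cells, 354 CPM in other cells and 33.6 CPM in PRP-high cells. No UMI of 7 neuron markers, 6 endothelium markers or 7 markers of steroid-making gonad or adrenal cells fell in PAG-high cells. In other cells the neuron list summed to 1097 and 1177 CPM. The endothelium list summed to only 17.1 and 19.0 CPM there, and the gonad or adrenal list to 8.81 and 9.43 CPM. No UMI in PAG-high cells allows up to 15.4 CPM (3 counts), so for the endothelium and gonad or adrenal lists it says little. Other lists did have UMIs in PAG-high cells. The surface or amnion ectoderm list summed to 1466 and 1718 CPM in PAG-high cells against 325 and 507 CPM in other cells, with 308 of its 312 UMIs from the keratin KRT19. The myeloid list summed to 439 and 716 CPM in PAG-high and 918 and 1164 CPM in PRP-high cells, against 12.8 and 14.3 CPM in other cells. Of the myeloid markers, AIF1 had 113 UMIs in PAG-high and 85 in PRP-high cells. Maternal endometrial epithelium markers had 4 UMIs in PAG-high cells, at 21.4 and 19.6 CPM against 2.91 and 1.96 CPM in other cells. Erythroid markers had 60 UMIs in PAG-high cells, all of HBE1 and HBZ, and gut endoderm markers had 33, of EPCAM and CLDN6, each list at a lower summed CPM than in other cells. The part of such transcripts in the results below was not tested. Ribosomal protein genes took a median of 34.8% and 34.9% of counts per cell in PAG-high cells, 11.6% and 22.7% in PRP-high cells and 4.06% and 5.46% in other cells. The median depth per cell was 17038 and 10798 UMIs in PAG-high, 3180.5 and 5509.5 in PRP-high, and 4983.5 and 5694 in other cells. GFP, a row of the table whose bearing cells the labels do not name, stood at 53.5 and 19.6 CPM in PAG-high cells and at 1651 and 1802 CPM in other cells.

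CYP11A1, STAR, FDX1 and PTGS2 were higher in PAG-high than in other cells and HSD17B12 was lower. By edgeR's quasi-likelihood test with Benjamini-Hochberg adjustment over all genes, 4 of the 5 passed at 0.05 in the higher direction, where 5.88% of the 15248 genes tested did, and 1 of the 5 in the lower direction, where 16.4% did (22.3% in either). All 5 had 23 or more UMIs in other cells alone, so none entered the test only through the class in which it was high. The median log2 fold change of all genes tested was -3.14, since 6812 of them had no UMI in the few PAG-high cells, and it was -3.60 with median-ratio size factors.

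**Figure D1:**
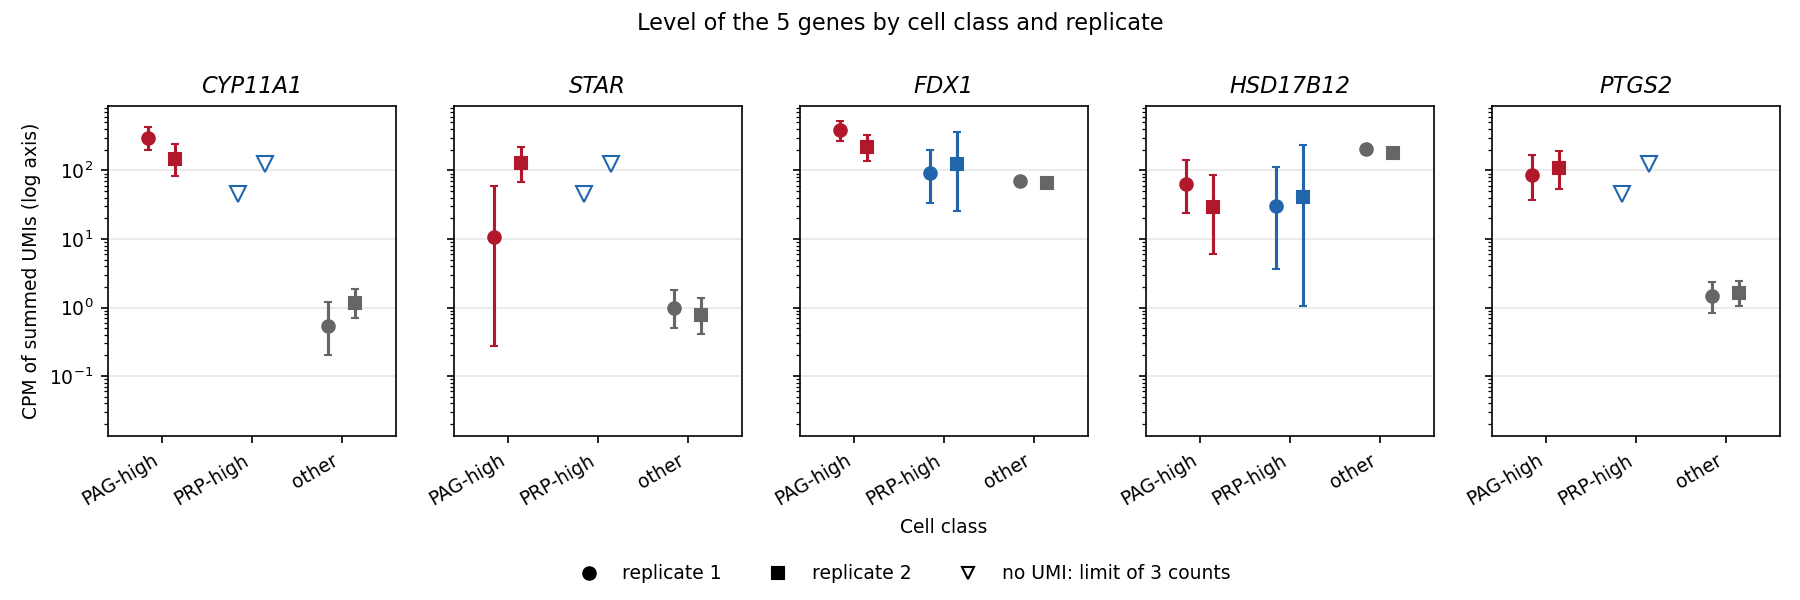
CPM of each gene on a log axis, by cell class (PAG-high, PRP-high, other) and replicate (circles replicate 1, squares replicate 2), with exact 95% Poisson intervals; open triangles stand at the limit of 3 counts where no UMI was found. CYP11A1 stood at 300 and 147 CPM in PAG-high cells against 0.545 and 1.18 CPM in other cells, while HSD17B12 was lower in both gated classes than in other cells.

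CYP11A1, the enzyme of the first committed step, stood at 300 CPM in PAG-high cells of replicate 1 (28 UMIs, interval 199 to 433) and at 147 CPM in replicate 2 (15 UMIs, 82.4 to 243). In other cells it stood at 0.545 CPM (6 UMIs) and 1.18 CPM (18 UMIs). Both PAG-high sums lay above both other-cell sums with a gap far wider than the spread between replicates. The means were 223 CPM ± 108 (SD, n = 2) and 0.862 CPM ± 0.448 (SD, n = 2). Over both replicates the ratio was 241-fold (counting interval 143 to 415), and the fitted log2 fold change was 8.17 (SE 0.67, edgeR adjusted p = 1.29e-31). Against only those other cells with 10% or more ribosomal protein counts it passed as well (edgeR adjusted p = 3.53e-28).

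All 5 PAG-high cells of replicate 1 and 5 of 7 in replicate 2 held a CYP11A1 UMI. The UMIs were spread over the cells, with 4, 5, 1, 11 and 7 in replicate 1 and 5, 4, 3, 0, 2, 1 and 0 in replicate 2, in order of falling depth. In other cells 0.312% and 0.374% held one, at the lower median depths given above. After each cell was thinned to 2000 UMIs, 4 of 12 PAG-high and 3 of 3734 other cells held one, and no level is read from so few UMIs.

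STAR, the cholesterol transfer protein, was uneven between the replicates. It stood at 10.7 CPM in PAG-high cells of replicate 1 (1 UMI, interval 0.271 to 59.6) and at 128 CPM in replicate 2 (13 UMIs, 67.9 to 218), against 1.00 CPM (11 UMIs) and 0.786 CPM (12 UMIs) in other cells. The PAG-high sums lay above the other-cell sums in both replicates, but the interval of the first overlapped theirs. The means were 69.1 CPM ± 82.7 (SD, n = 2) and 0.893 CPM ± 0.151 (SD, n = 2), with a fitted log2 fold change of 6.40 (SE 1.25, edgeR adjusted p = 8.07e-06). A single cell of replicate 2 held 10 of the 14 UMIs, and the remaining 4 were in 3 cells. Without that cell, an alternative chosen after its value was seen, the log2 fold change was 4.75 (edgeR adjusted p = 0.049). Without replicate 2 the log2 fold change, which then has no test, was 3.59.

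FDX1, the iron-sulfur protein that carries electrons to CYP11A1, was found in every class. In PAG-high cells it stood at 385 CPM (36 UMIs, interval 270 to 533) and 216 CPM (22 UMIs, 135 to 327). In PRP-high cells it stood at 91.8 CPM (6 UMIs) and 125 CPM (3 UMIs), and in other cells at 69.7 CPM (767 UMIs) and 65.2 CPM (996 UMIs). Both PAG-high sums were above all 4 sums of the remaining classes. The means were 301 CPM ± 120 in PAG-high, 108 CPM ± 23.2 in PRP-high and 67.5 CPM ± 3.18 in other cells (SD, n = 2 each). PAG-high cells exceeded other cells 4.43-fold (counting interval 3.35 to 5.75), with a fitted log2 fold change of 2.40 (SE 0.48, edgeR adjusted p = 1.72e-05). FDX1 was detected in 10 of 12 PAG-high cells, and the 2 without it were the shallowest of the class, with 3285 and 2480 UMIs. After thinning to 2000 UMIs, 2 of 12 PAG-high cells (16.7%) and 13.1% of other cells held one, so at that depth the shares did not show the difference seen in CPM.

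Within the PAG-high class, CYP11A1 and FDX1 were found together in 9 of 12 cells. All 3 cells with both CYP11A1 and STAR also held FDX1. CYP11A1, FDX1 and PTGS2 were found together in 6 of 12 cells. Of the 4335 other cells, 4 held both CYP11A1 and FDX1 and none held both CYP11A1 and STAR; at this depth, cells that express both could lack a UMI of either.

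**Figure D2:**
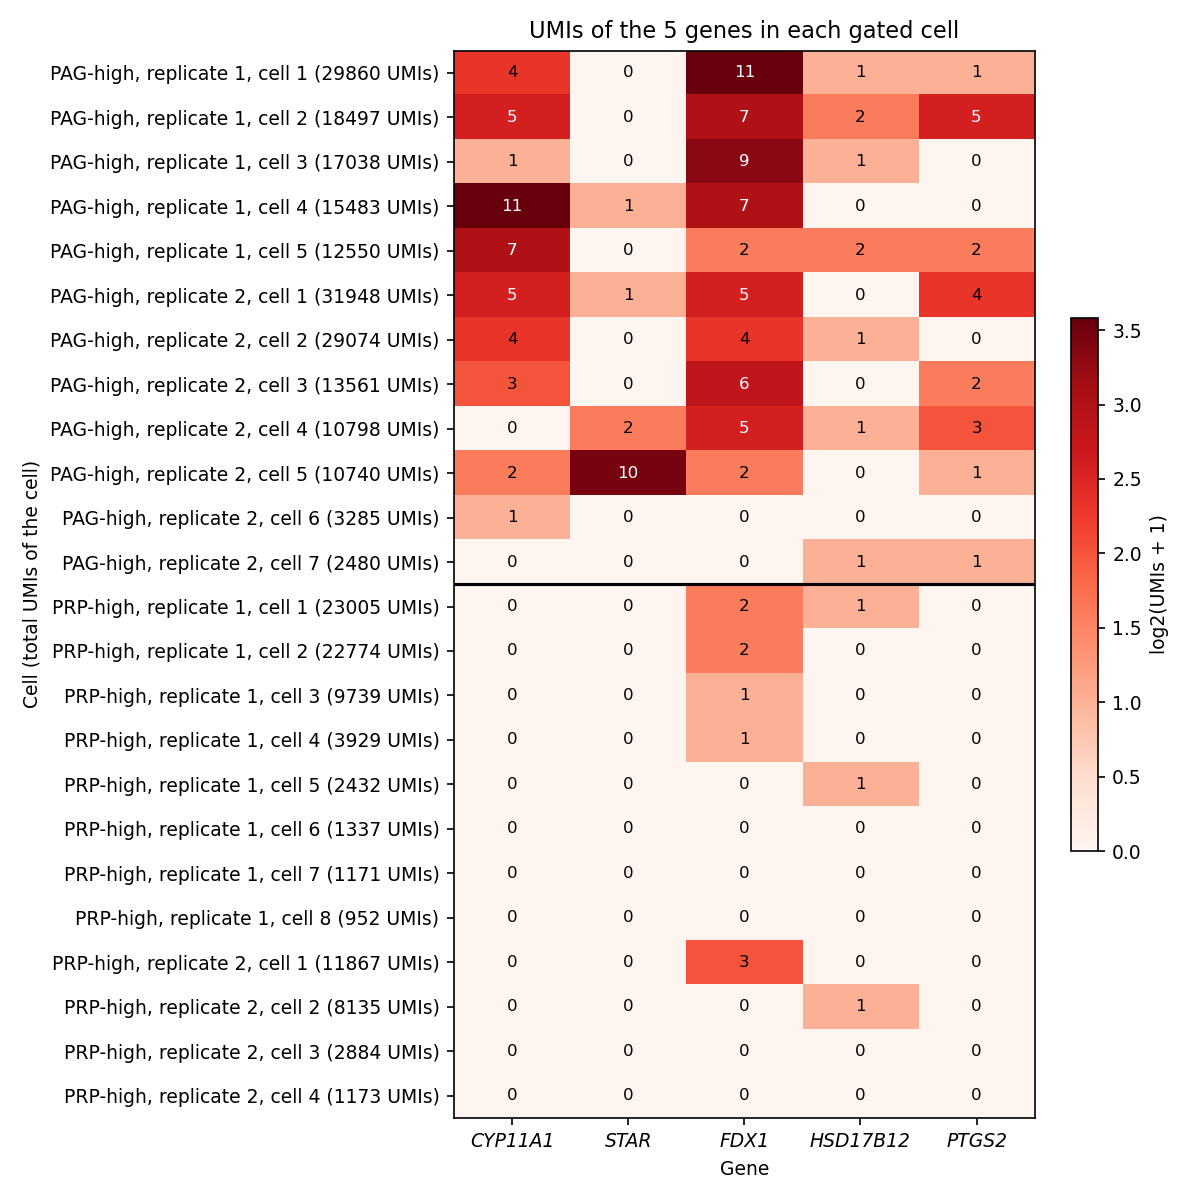
UMIs of the 5 genes (columns) in each of the 12 PAG-high and 12 PRP-high cells (rows, with the total UMIs of the cell; colour is log2(UMIs + 1)). CYP11A1 and FDX1 UMIs run down most PAG-high rows, 10 of the 14 STAR UMIs sit in 1 cell, and the PRP-high rows hold only 9 FDX1 and 3 HSD17B12 UMIs.

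PTGS2, the inducible cyclooxygenase, was the most even of the high genes between replicates. It stood at 85.6 CPM in PAG-high cells of replicate 1 (8 UMIs, interval 37.0 to 169) and at 108 CPM in replicate 2 (11 UMIs, 53.9 to 193), against 1.45 CPM (16 UMIs) and 1.64 CPM (25 UMIs) in other cells. The classes did not overlap, and the counting intervals were far apart in both replicates. The means were 96.8 CPM ± 15.8 and 1.55 CPM ± 0.129 (SD, n = 2 each), a ratio of 62.4-fold (counting interval 34.2 to 110). The fitted log2 fold change was 6.24 (SE 0.89, edgeR adjusted p = 1.76e-10), and it was 7.78 against other cells with 10% or more ribosomal protein counts (edgeR adjusted p = 2.53e-11). PTGS2 was detected in 3 of 5 and 5 of 7 PAG-high cells, with at most 5 UMIs in a cell, and in 0.675% and 0.955% of other cells.

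HSD17B12 showed the opposite order. It stood at 64.2 CPM (6 UMIs, interval 23.6 to 140) and 29.4 CPM (3 UMIs, 6.07 to 86.0) in PAG-high cells and at 30.6 CPM (2 UMIs) and 41.6 CPM (1 UMI) in PRP-high cells. In other cells it stood at 203 CPM (2234 UMIs) and 178 CPM (2717 UMIs). All 4 gated sums lay below both other-cell sums, and the gated classes overlapped each other. PAG-high cells were 4.09-fold lower than other cells (counting interval 2.15 to 8.95), with means of 46.8 CPM ± 24.6 and 190 CPM ± 17.8 (SD, n = 2 each) and a fitted log2 fold change of -1.77 (SE 0.64, edgeR adjusted p = 0.0303). Against other cells with 10% or more ribosomal protein counts the log2 fold change was -1.11 and did not pass (edgeR adjusted p = 0.289). HSD17B12 was detected in 58.3% of PAG-high cells and 51.8% of other cells, the deeper class having the lower CPM, so no order is read from these shares.

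PRP-high cells held no UMI of CYP11A1, STAR or PTGS2 in either replicate. For each gene, 0 of 12 cells allows a share of up to 25.0% of cells with a UMI, not of cells that express it. A count of 0 in 89398 UMIs allows up to 33.6 CPM (3 counts), which is far above the level in other cells. A level as in other cells was therefore not detectable in PRP-high cells at this depth. The level of PAG-high cells was 6.56 times the limit of 3 counts in PRP-high cells for CYP11A1, 2.14 times for STAR and 2.90 times for PTGS2, over both replicates. These ratios take the PAG-high level as measured and leave out its own counting error. By replicate, the ratio to 3 counts in PRP-high cells was 6.53 and 1.18 for CYP11A1, 0.233 and 1.02 for STAR and 1.86 and 0.866 for PTGS2. In replicate 2 alone PTGS2 was thus below the limit, and in replicate 1 alone STAR was. Without the cell with 10 STAR UMIs, the STAR level of 21.7 CPM over both replicates was below the limit of 33.6 CPM. With 4 cells in replicate 2, the PRP-high class fell below the minimum of 5 cells set for a test. A minimum of 4, adopted after the class sizes were seen, gave the following values from the same fit.

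Against PRP-high cells, CYP11A1 passed (edgeR adjusted p = 0.00186), where 2.65% of genes did in either direction, 1.2% higher and 1.45% lower in PAG-high cells. The adjusted p of CYP11A1 lay between 3.58e-06 and 0.0165 over the 13 alternatives with 4 or more PRP-high cells in each replicate. Among these, leaving out cells past both gates only repeated the first fit, since no cell passed both. The lowest value came from filterByExpr, which kept CYP11A1 only through its PAG-high sums and so adds no support. PTGS2 (edgeR adjusted p = 0.210) and STAR (0.570) did not pass in the first fit. Without the replicate block PTGS2 passed (edgeR adjusted p = 0.0102). FDX1 was 2.95-fold lower in PRP-high than in PAG-high cells (counting interval 1.45 to 6.77), and its log2 fold change of 1.83 for PAG-high over PRP-high cells (SE 0.69) did not pass (edgeR adjusted p = 0.199). It passed under filterByExpr (0.0322) and without the replicate block (0.0403), both edgeR adjusted p. FDX1 too was kept by filterByExpr only by means of its PAG-high sums, so that pass adds no support. HSD17B12 differed between the gated classes by 0.73 on the log2 scale (SE 1.17), which did not pass (edgeR adjusted p = 1.0).

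Against other cells, PRP-high cells had 5.61-fold less HSD17B12 (counting interval 1.92 to 27.2, from 3 UMIs), with a log2 fold change of -2.50 (SE 0.88, edgeR adjusted p = 0.0336), where 14.5% of genes passed, 10.8% lower and 3.69% higher. This call too was lost against other cells with 10% or more ribosomal protein counts (-1.82, edgeR adjusted p = 0.226). The FDX1 ratio of PRP-high to other cells was 1.5 (counting interval 0.685 to 2.86), and the difference did not pass (log2 fold change 0.57, SE 0.72, edgeR adjusted p = 0.701).

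Near the gate the cells were few and of unlike depth, so no trend in level is read there. The 2 PAG-high cells with 10 to 24 UMIs of the gating genes were the shallowest of the class, with 5765 UMIs in all. They held 1 CYP11A1, 1 HSD17B12 and 1 PTGS2 UMI and no STAR or FDX1 UMI. The 2 cells with 5 to 9 (20639 UMIs in all) held 1 STAR and 3 FDX1 UMIs. The 2 cells with 2 to 4 (40762 UMIs in all) held 1 CYP11A1 and 1 FDX1 UMI. The 61 cells with 1 (459916 UMIs in all) held 10 CYP11A1, 31 FDX1, 84 HSD17B12 and 1 PTGS2 UMI and no STAR UMI. These 10 are part of the 24 CYP11A1 UMIs of all other cells. Ratios to the UMIs of PAG2 and PAG8 are largely set by the gate, since other cells are by definition those with few of them. There were 27.0 CYP11A1 UMIs per 100 of PAG2 and PAG8 in other cells against 1.38 in PAG-high cells. For STAR these ratios were 25.8 and 0.448, and for PTGS2 46.1 and 0.608. FDX1, found in every class, had the same direction, at 1981 and 1.86. No source of the UMIs in other cells is read from these ratios.

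To place the other cells, all cells were grouped into 23 clusters without the gating genes and without the pathway and marker genes, so a cluster is described here and not tested. Cluster 17 held all 12 PAG-high cells and 4 other cells, and cluster 22 held exactly the 12 PRP-high cells. CYP11A1 had no UMI in 16 of the 23 clusters. It was highest in cluster 17 at 200 CPM (interval 145 to 268) and next in cluster 21 at 96.7 CPM (54.1 to 160), and these intervals overlap. Cluster 21 held 29 cells, 17 and 12 in the 2 replicates, and was led by WFDC2, ATP6V1G3, CA12, ATP6V1C2, SLC26A4 and TFCP2L1; it was given no cell type name.

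Cluster 21 held 15 of the 24 CYP11A1 UMIs of other cells (62.5%), in 7 of its cells. In replicate 1 it held 3 UMIs in 3 cells (35.9 CPM) and in replicate 2 it held 12 UMIs in 4 cells (168 CPM), of which 8 were in 1 cell. The same 29 cells had 1 UMI of PAG2 and PAG8. They had no STAR or PTGS2 UMI, while FDX1 stood at 45.1 CPM and HSD17B12 at 70.9 CPM. A cluster with this CYP11A1 level and size was also found at Leiden resolutions of 0.5 and 2. Without it, the CYP11A1 log2 fold change of PAG-high over other cells was 9.44 (edgeR adjusted p = 5.21e-36), an alternative chosen after its level was seen.

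**Figure D3:**
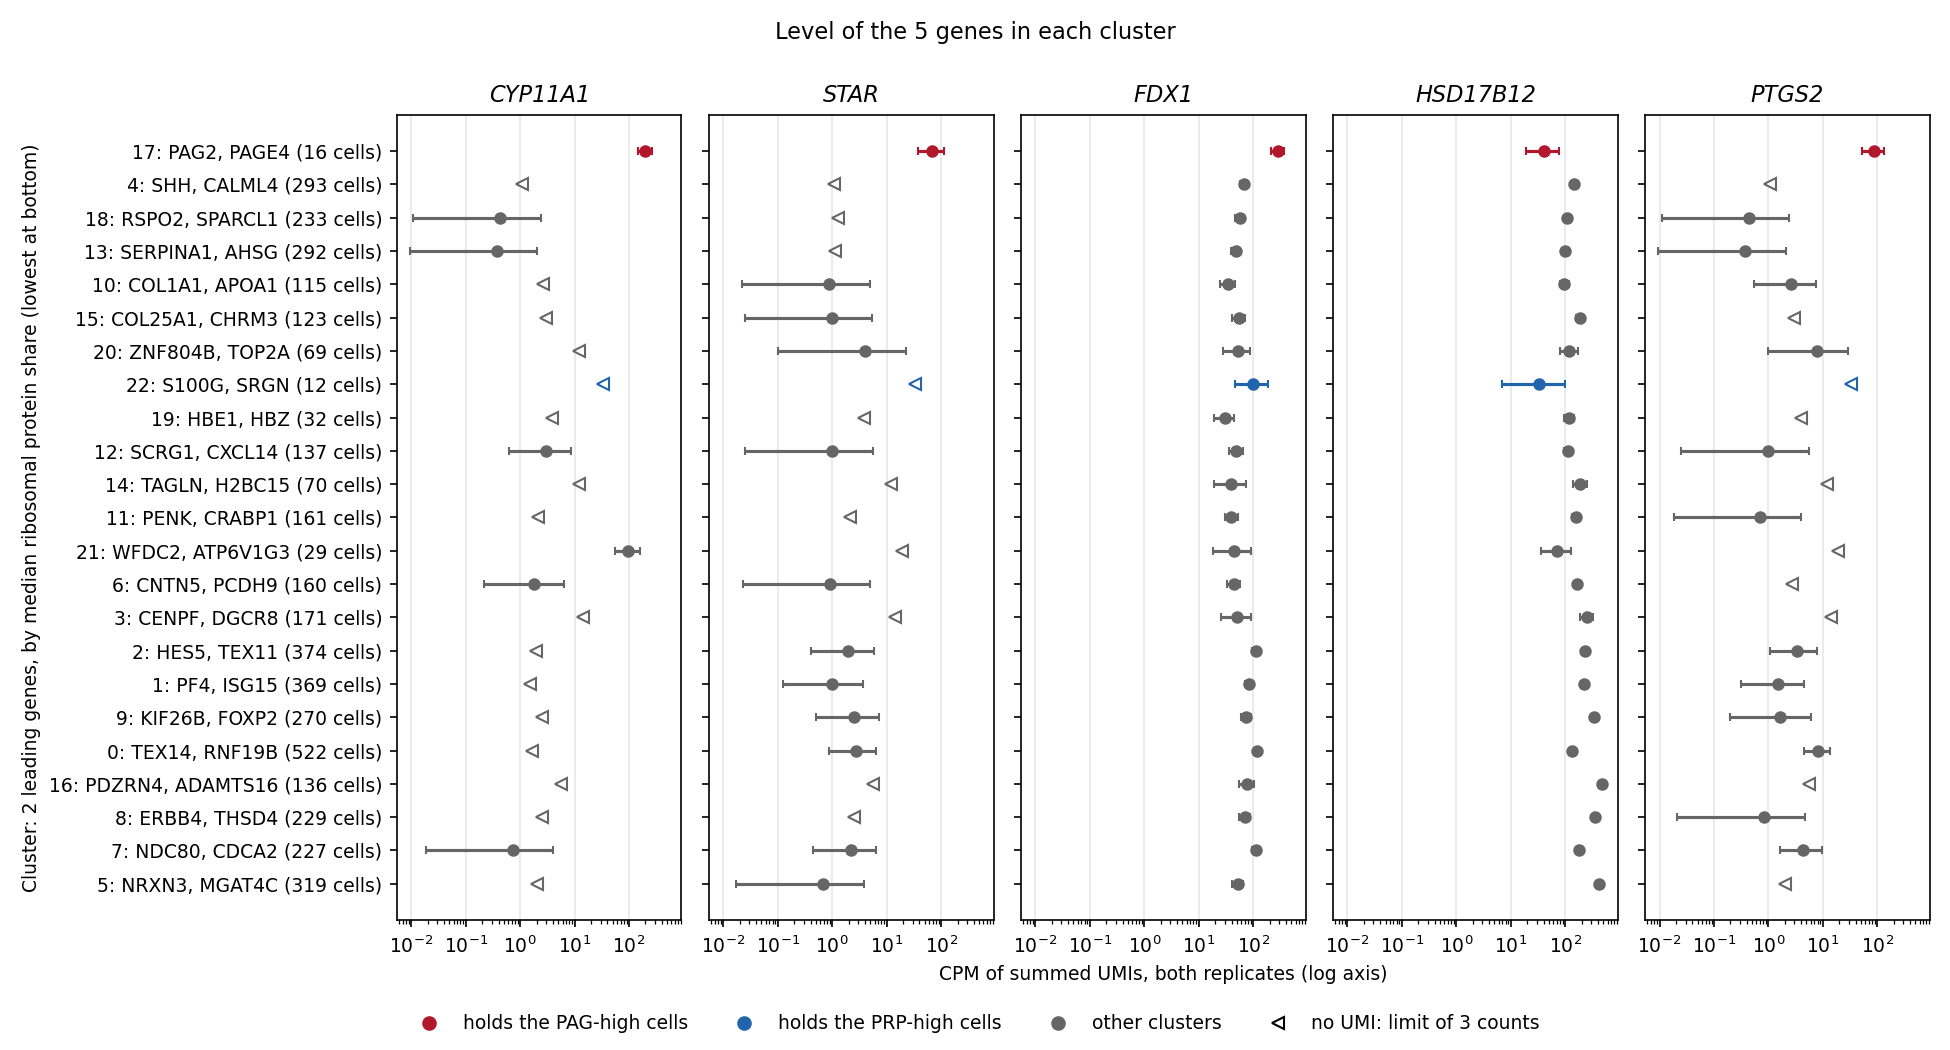
CPM of each gene (log axis, both replicates summed, exact 95% Poisson intervals) in the 23 clusters, each named by its number and 2 leading genes and ordered by the median ribosomal protein share of its cells, lowest at the bottom; open triangles stand at the limit of 3 counts where no UMI was found. CYP11A1 is high in cluster 17 (200 CPM) and cluster 21 (96.7 CPM), STAR and PTGS2 in cluster 17, and HSD17B12 is lowest in clusters 22 and 17.

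STAR and PTGS2 were highest in cluster 17, at 68.1 and 86.3 CPM. The 23 STAR UMIs of other cells lay in 23 cells spread over 12 clusters, at most 5 in any, and the next highest cluster, number 20, had 3.98 CPM from 1 UMI. For PTGS2 the next was cluster 0, led by TEX14, RNF19B, FAM43A and KLF5, at 8.13 CPM (interval 4.55 to 13.4). It held 15 of the 41 PTGS2 UMIs of other cells (36.6%).

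FDX1 and HSD17B12 had UMIs in all 23 clusters. FDX1 was highest in cluster 17 at 281 CPM (interval 216 to 361), which did not overlap the next, cluster 0 at 119 CPM (104 to 136). Clusters 2 and 7 followed at 112 and 111 CPM with intervals that overlap that of cluster 0. FDX1 was lowest at 29.9 CPM in cluster 19, which was led by the embryonic globin genes HBE1 and HBZ. Between neighbouring clusters from the second rank down, every pair of FDX1 intervals overlapped.

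HSD17B12 was highest in cluster 16, led by PDZRN4 and ADAMTS16, at 470 CPM (interval 415 to 532) and in cluster 5, led by NRXN3 and MGAT4C, at 421 CPM (388 to 455). Clusters 8 and 9 followed at 347 and 332 CPM. At the low end stood cluster 21 at 70.9 CPM, cluster 17 at 40.9 CPM and cluster 22 at 33.6 CPM, with overlapping intervals. Over the 23 clusters, HSD17B12 on the log2(CPM + 20) scale had a Pearson r of -0.732 with the median ribosomal protein share, and FDX1 an r of 0.00371, or -0.522 without cluster 17; the clusters share libraries and this is a description. Among other cells, HSD17B12 stood at 275 and 274 CPM in cells with under 10% ribosomal protein counts and at 117 and 114 CPM in the rest. FDX1 also stood higher in the cells of low share, at 83.4 and 90.5 CPM against 53.5 and 48.5 CPM. The part of the ribosomal protein share in the lower level of HSD17B12 in PAG-high cells was not tested beyond the comparison with other cells of 10% or more.

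**Figure D4:**
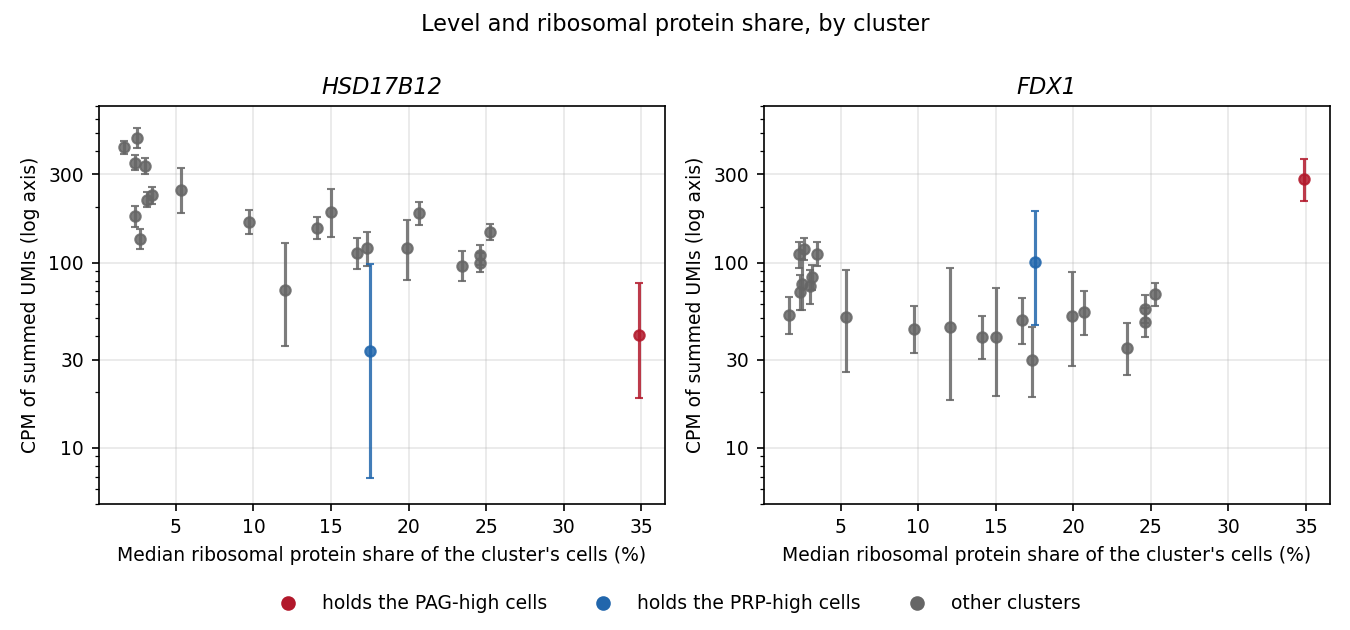
CPM of HSD17B12 and FDX1 (log axis, exact 95% Poisson intervals) against the median share of ribosomal protein counts per cell (%), 1 point per cluster. HSD17B12 is higher in the clusters of low share (r = -0.732 over 23 clusters), FDX1 has an r of -0.522 without cluster 17, and cluster 17, at 281 CPM of FDX1, stands above the others.

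The genes most like each member over the 23 clusters were taken by Pearson r of log2(CPM + 20). For CYP11A1 they included PHLDA2 (r = 0.995), C15H11orf34 (0.992), GCGR (0.985) and PLBD1 (0.979). The r of these 4 lay between 0.941 and 0.995 without cluster 17. Outside cluster 17, CYP11A1 had 15 UMIs in cluster 21 (96.7 CPM) and at most 3 UMIs in any other cluster. These r values were therefore largely set by cluster 21, and r without both clusters was not computed. For STAR the list held PINLYP, C9H6orf58, PTGS2, PAG12 and LOC100294726, all with r from 0.984 to 0.986. Without cluster 17, r was 0.872 for PTGS2 and 0.23 for PINLYP, so most of the STAR likeness rests on that cluster. PTGS2 was most like C9H6orf58, PAG8, PAG12, PINLYP and ITGB2 (r from 0.956 to 0.959), and C9H6orf58 fell to 0.301 without cluster 17. FDX1 was most like TMEM268 (0.892, and 0.822 without cluster 17), LOC512541, SLC2A12, LOC104969408 and MGST1. HSD17B12 was most like FRYL (0.928), ST7 (0.926), ARMC8 (0.916), TTC17 (0.915) and FAM168A (0.912).

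The other genes of steroid synthesis and cholesterol supply were read from a list of 45, of which 41 were in the table and 33 were tested. In PAG-high against other cells 7 were higher, 3 were lower and 23 did not pass by edgeR's test, the members included, where 5.88% of all genes were higher and 16.4% lower. The list's median log2 fold change was -0.78, and 0.34 when genes with no UMI in PAG-high cells were set to their bound, against -3.14 and -0.75 over all genes tested. The sign of the list's median thus depends on that choice.

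HSD3B1, which turns pregnenolone into progesterone, had 11 and 2 UMIs in PAG-high cells (118 and 19.6 CPM). It had 2 and 1 UMIs in PRP-high cells (30.6 and 41.6 CPM) and 4 and 3 in other cells (0.364 and 0.196 CPM). Its log2 fold change of PAG-high over other cells was 7.89 (SE 1.38, edgeR adjusted p = 4.91e-07). From 3 UMIs, PRP-high cells had 126-fold more HSD3B1 than other cells (counting interval 21.02 to 552). They had 1.98-fold less than PAG-high cells (0.545 to 10.9). The last interval spans equal levels in the gated classes, and PRP-high cells stood higher in replicate 2. NPC2, which carries cholesterol out of the lysosome, had 213 and 205 UMIs in PAG-high cells and 7 and 0 in PRP-high cells, and it rose by 6.40 on the log2 scale over other cells (SE 0.54, edgeR adjusted p = 5.57e-30). TSPO, a cholesterol-binding protein of the outer mitochondrial membrane, had 28 and 27 UMIs in PAG-high and none in PRP-high cells (log2 fold change 4.60, SE 0.54, edgeR adjusted p = 2.12e-15). HSD17B10, a mitochondrial dehydrogenase named here after its values were seen, was the remaining higher gene (1.86, edgeR adjusted p = 0.0166) and missed the threshold under 3 alternatives.

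The lower genes included HSD17B12 and NCEH1. NCEH1, a cholesteryl ester hydrolase, had no UMI in PAG-high cells and 862 and 853 in other cells, at least 4.25-fold lower in PAG-high cells (edgeR adjusted p = 0.00694). That call was lost against other cells with 10% or more ribosomal protein counts (edgeR adjusted p = 0.165). FDXR, which feeds electrons to FDX1, had 3 and 1 UMIs in PAG-high cells and did not pass (log2 fold change 1.47, SE 1.24, edgeR adjusted p = 0.458). CYP17A1, needed for androgens, had no UMI in any class, CYP19A1, the aromatase, had 4 UMIs, all in other cells, and NR5A1, a transcription factor of steroid-making glands, had 2 there. No UMI in PAG-high cells allows up to 15.4 CPM (3 counts), far above the level of CYP19A1 and NR5A1 in other cells. A level as in other cells was therefore not detectable in PAG-high cells for these genes.

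**Figure D5:**
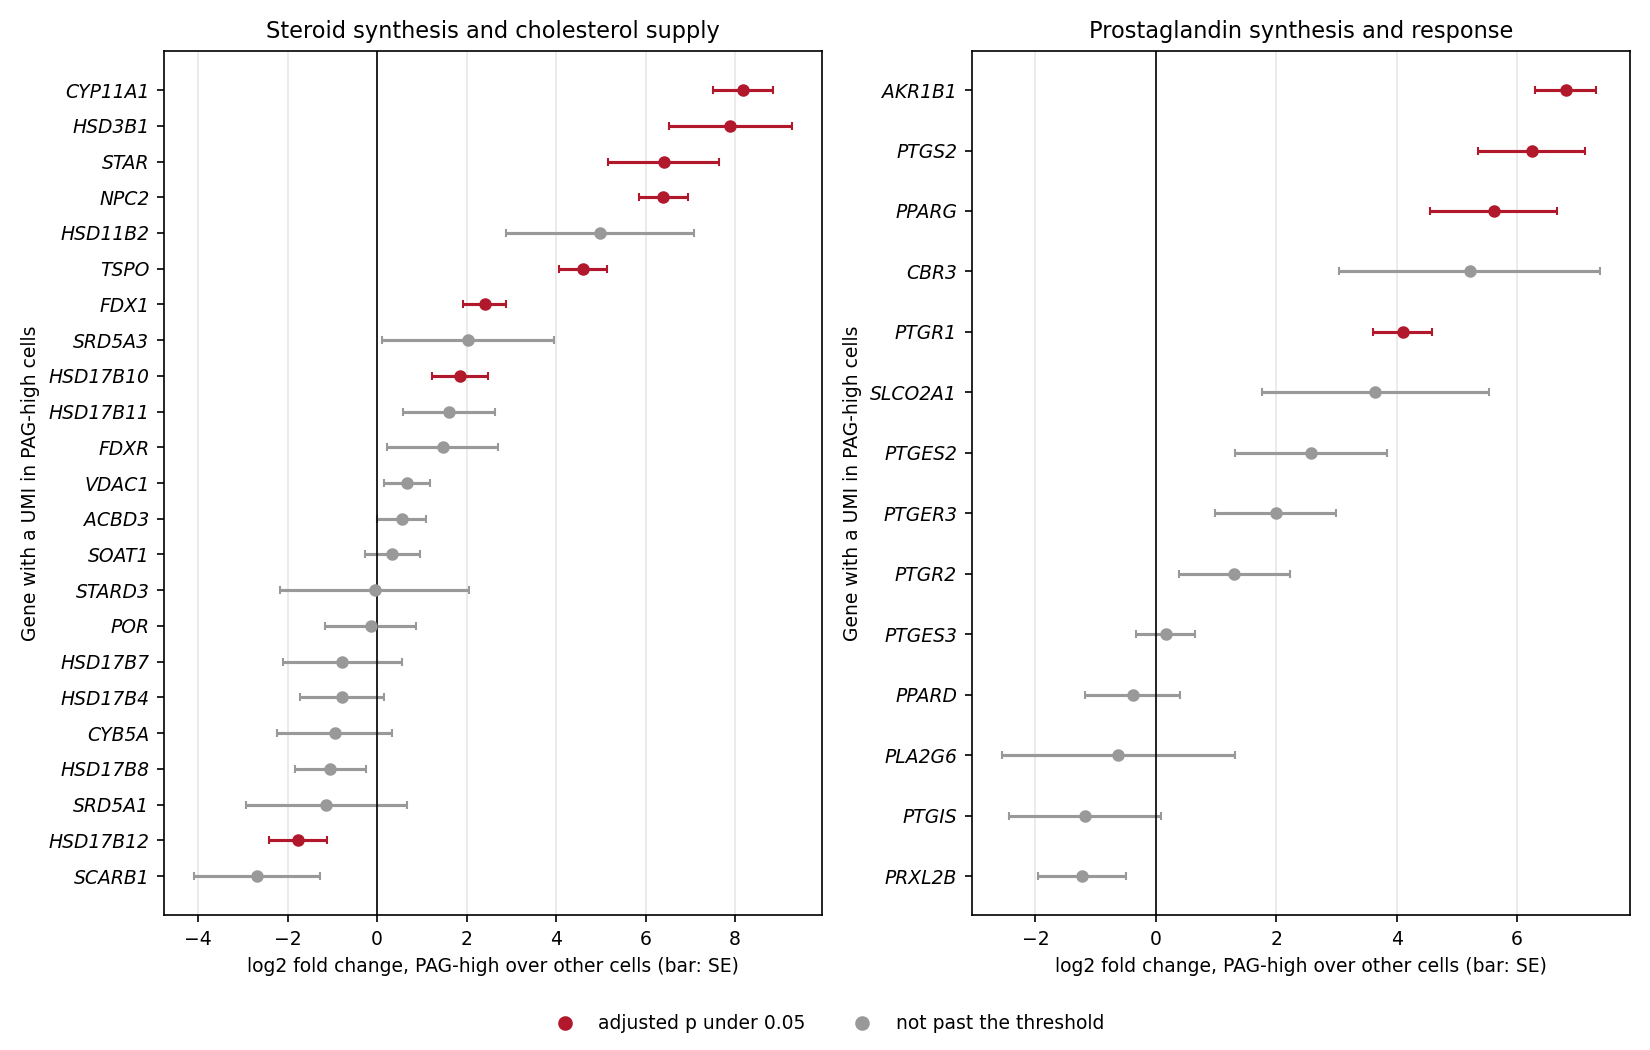
Fitted log2 fold change of PAG-high over other cells, with its SE, for the genes of the steroid list (left) and the prostaglandin list (right) that had a UMI in PAG-high cells; red points have an adjusted p under 0.05. CYP11A1 (8.17), HSD3B1 (7.89) and AKR1B1 (6.81) are farthest to the right, and HSD17B12 (-1.77) is the red point on the left.

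Of 30 prostaglandin genes, 28 were in the table and 25 were tested, and in PAG-high cells 4 were higher, none was lower and 21 did not pass by edgeR's test, where 5.88% of all genes were higher and 16.4% lower. The median log2 fold change was -1.18, and 1.99 with bounds, so its sign again depends on the genes with no UMI. AKR1B1, an aldo-keto reductase with prostaglandin F synthase activity in cattle, had 713 and 794 UMIs in PAG-high cells, 1 and 0 in PRP-high cells and 971 and 1230 in other cells. It was 92.1-fold higher in PAG-high than in other cells (counting interval 86.2 to 98.4), with a log2 fold change of 6.81 (SE 0.50, edgeR adjusted p = 6.24e-39). PTGR1, which inactivates prostaglandins and leukotrienes, was 13.9-fold higher (38 and 49 UMIs, edgeR adjusted p = 8.95e-15).

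PPARG, a nuclear receptor that binds prostaglandin derivatives, had 8 and 3 UMIs in PAG-high and 9 and 5 in PRP-high cells, against 16 and 19 in all other cells (log2 fold change of PAG-high over other cells 5.61, edgeR adjusted p = 3.29e-06). Of the terminal synthases, PTGES3 stood at 300 and 383 CPM in PAG-high and at 376 and 376 CPM in other cells and did not pass (edgeR adjusted p = 0.855). PTGES had no UMI in PAG-high cells and stood at 1.91 and 2.36 CPM in other cells. PTGS1, the constitutive cyclooxygenase, also had none in PAG-high cells, and 25 UMIs in other cells (0.727 and 1.11 CPM). No UMI in PAG-high cells allows up to 15.4 CPM (3 counts over both replicates). For either gene a level as in other cells was therefore not detectable in PAG-high cells.

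Further lists gave the surroundings of single members, to be read against 5.88% of all genes higher and 16.4% lower. Of 11 fatty acid elongation genes, 3 were lower in PAG-high cells and 8 did not pass by edgeR's test. They were HSD17B12, ELOVL5, an elongase with no UMI in PAG-high cells (at least 5.39-fold lower, edgeR adjusted p = 0.00254), and HACD3, a dehydratase of the same cycle (2 UMIs, 12.1-fold lower, counting interval 3.34 to 99.7, edgeR adjusted p = 0.00521). Of 16 iron-sulfur cluster genes, FDX1 and NFU1, a cluster carrier of mitochondria, were higher and 14 did not pass. NFU1 had a log2 fold change of 2.04 (edgeR adjusted p = 0.00211), which missed the threshold with DESeq2. Of 22 cholesterol synthesis genes only PMVK, phosphomevalonate kinase, was higher (3.66, edgeR adjusted p = 0.00604) and 21 did not pass.

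PTGS2 is also known as an early response gene. Of 20 other early response genes, 1 was higher (5.88% of all genes were), 6 were lower (16.4%) and 13 did not pass by edgeR's test. The part of an early response in the level of PTGS2 was not tested. IER3, named after its values were seen, was the higher one (3.22, edgeR adjusted p = 7.67e-05) and missed the threshold with DESeq2. JUN stood at 514 and 157 CPM in PAG-high and 875 and 1015 CPM in other cells and was lower (-1.38, edgeR adjusted p = 0.0295). CCN2 was 15.9-fold lower (3 UMIs, counting interval 5.45 to 77.3, edgeR adjusted p = 8.03e-05), and DUSP1 and HSPA1A had 1 UMI each in PAG-high cells.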

How the data were processed

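The deposited table holds raw UMI counts per gene and cell, not normalized by the authors. The bosTau9 build and the tools Cell Ranger, Seurat 4.3.0 and R 4.1.2 are named per the submitters' processing notes. The annotation and Cell Ranger's version are not given in those notes. The detected genes of deposited cells ran from 201 to 3999 and mitochondrial counts reached 4.98%, the trace of an earlier filter; any cell with more genes is not analysed here. The deepest PAG-high cell of replicate 1 had 3966 genes. Replicates held 1973 and 2464 cells and 11182089 and 15427708 UMIs. They shared 6 barcodes, none of them in a gated cell. Cells with 500 or more genes and under 20% mitochondrial counts were kept, and no doublet caller was run, so doublets were not assessed.

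UMI counts were summed per class and replicate (6 sums) and fitted with edgeR 4.0.16 in R 4.3.3. The fit used TMM, genes with 10 or more UMIs over all sums, robust quasi-likelihood and replicate as a block, with Benjamini-Hochberg adjustment at 0.05. Each gene had 2 residual degrees of freedom, and the spread was pooled over genes for most of them. Replicates pair the sums by design, since classes of a number come from the same suspension. SE is the log2 fold change divided by the square root of its F statistic. The code was tested on simulated data. Clustering used scanpy 1.11.5 and igraph 0.11.9 in Python 3.11.15 (2000 variable genes, 30 principal components, 15 neighbours, Leiden resolution 1). Alternatives were DESeq2 1.42.0, median-ratio factors, other filters, gates, cells and comparators, no block, each replicate left out, thinning and other resolutions.

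All 5 members were named, and of each list up to 8 (steroid, prostaglandin) or 4 (other lists) called genes by absolute log2 fold change; genes with 50 or more UMIs in a gated class may be given by level. A few genes that these rules name are not reported here. For likeness the 5 genes of highest r with 50 or more UMIs were taken over clusters of 10 or more cells. The members and lists were chosen with earlier results of these data known. A RefSeq table of a different assembly, used for names alone, held all 5 members. HSD17B12, HSD3B1 and the PAG and PRP genes belong to families of like genes, and their counts are uncertain where counting could split reads.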

Additional observations from a re-analysis of the deposited data

How the results depend on the processing

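The gated classes are small, which limits precision: 12 cells and 195314 UMIs for PAG-high and 12 cells and 89398 UMIs for PRP-high cells. CYP11A1 and FDX1 kept their direction and side of the threshold in PAG-high against other cells under all 14 alternatives with a test, PTGS2 under 13 of 13, STAR under 12 of 12 and HSD17B12 under 13 of 14 (adjusted p from 0.000338 to 0.289). The exception was the comparator of other cells with 10% or more ribosomal protein counts. Leaving out cells past both gates is counted among these alternatives, but no cell passed both, so it repeated the first fit and adds no support. The filterByExpr fit is counted too, but there CYP11A1 and FDX1 passed the filter only by means of their PAG-high sums. HSD17B12 passed it only by its sums in other cells. Each was kept through the class in which it was high, so that fit adds no support for these genes. The count of genes called in PAG-high against other cells was 3400. It was 1730 with DESeq2, which set an adjusted p for 4901 genes only, 2255 with filterByExpr, which tested 2909 genes, and 2118 against other cells with 10% or more ribosomal protein counts, where the cause was not tested. Of the calls 26.4% were higher, and 15.8% with median-ratio size factors. In PAG-high against PRP-high cells, with a minimum of 4 cells, 404 genes were called, 644 with filterByExpr and 658 without the replicate block. Without the block 4975 genes were called in PAG-high against other cells, and no member's call in that comparison changed. In PAG-high cells thinned to 2000 UMIs the mean share of cells with a UMI was 31.4% for CYP11A1 (85.7% unthinned), 20.0% for FDX1 (85.7%), 21.4% for HSD17B12 (61.4%) and 28.6% for PTGS2 (65.7%), since fewer molecules were read. Leaving out replicate 1 or 2 leaves no residual degrees of freedom and so no count of calls; the log2 fold changes in PAG-high against other cells were then 7.25 and 9.23 for CYP11A1, 7.62 and 3.59 for STAR, 2.05 and 2.68 for FDX1, -2.28 and -1.45 for HSD17B12, and 6.34 and 6.06 for PTGS2. Requiring both genes of a pair left 3 PRP-high cells in replicate 2, under the minimum of 4, and is not counted for the comparisons with PRP-high cells; CYP11A1 against PRP-high cells had an edgeR adjusted p of 0.00647 there. None of these results reversed.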

Other observations

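Cluster 21, the cells outside the gates with most CYP11A1, held other transcripts of the same pathways, given here as levels of a group formed by clustering and without a test. TSPO stood at 284 CPM there against 15.3 CPM in all remaining cells. FDXR, the electron donor of FDX1, stood at 51.6 against 8.71 CPM, and SOAT1, which esterifies cholesterol, at 322 against 75.4 CPM. PTGER3, a receptor for prostaglandin E2, stood at 484 CPM from 75 UMIs against 7.65 CPM. HSD3B1 and STAR had no UMI in the cluster, which allows up to 19.3 CPM for each (3 counts). GFP stood at 193 CPM there against 1730 CPM in all remaining cells.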
